A study of Mus musculus with 6 samples.

Results

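The genes described here are 32 genes of the cell cycle and of DNA replication, picked by symbol from the 35485 gene entries measured in the mouse retina. They were sorted by the phase in which they act: 8 genes of G1, 10 of S phase and 13 of mitosis, with Traip, a replication-associated ubiquitin ligase, kept apart. All 32 symbols were present in the data. The samples were whole retinas of wild type C57BL/6 mice aged 12 weeks. In the optic nerve crush (ONC) group the nerve was squeezed for 10 seconds at 2 mm behind the eyeball, and in the sham group it was exposed but left uncrushed. Retinas were taken 2 days later, and equal amounts of RNA from 6 retinas of 6 mice were mixed into each library, giving 3 ONC and 3 sham libraries. A pool hides the differences between its animals, so the spread reported below is between pools.

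A cell that divides passes through G1, copies its DNA in S phase and separates the copies in mitosis. D-type cyclins with Cdk4 and Cdk6 act in G1 and relieve the block that the retinoblastoma protein places on E2F transcription factors, whose targets include the replication genes. Genes of mitosis are switched on later, largely through promoters that bear a cell cycle homology region (CHR) and CCAAT boxes. Neurons of the adult retina do not divide, and microglia and Müller glia are the retinal cells best known for re-entering the cycle after injury. Several of these genes also have uses outside division, as Pcna and the Mcm proteins do in DNA repair and chromatin.

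No gene of the set changed past the threshold at 2 days after ONC. Of the 32 genes, 23 had a mean RPKM (exon reads scaled to transcript length and to library size) above 0.3 in at least one group and were tested. None of the 23 had a false discovery rate (FDR) under 0.1 in edgeR's quasi-likelihood test, against 6.09% of the 13670 genes tested. None was therefore a differentially expressed gene (DEG, FDR under 0.1 with a fold change above 1.5), against 1.66% of all. An unadjusted p under 0.05 was seen for 6 of the 23, against 16.7% of all genes. Of those 6, Mcm7, Ccna2, Bub1b, Ccnb2 and Traip were higher after ONC, against 7.73% of all genes. Cdk6 was the 1 lower gene, against 8.99%. The log2 fold change was above 0 for 15 of the 23, against 52.3% of all genes.

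**Figure D1:**
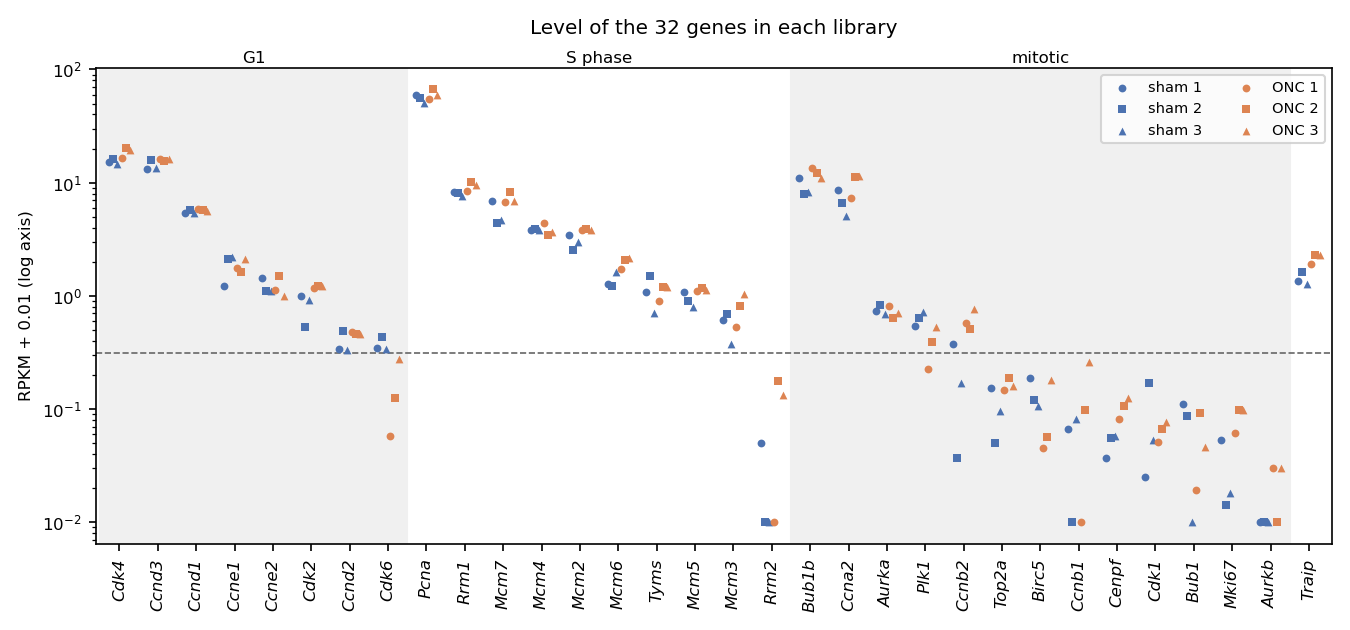
RPKM of each of the 32 genes in the 3 sham (blue) and 3 ONC (orange) libraries, with 0.01 added so that values of 0 can be drawn on the log axis. The shapes mark the library number and the dashed line marks an RPKM of 0.3. Most G1 and S-phase genes lie above the line, and 8 of the 13 mitotic genes lie below it in both group means.

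The 3 groups of genes differed in level. Pcna, the sliding clamp of DNA polymerase, had the highest level at a mean of 57.6 RPKM, above 94.1% of the tested genes. Cdk4 followed at 16.98, Ccnd3 at 15.0 and Bub1b at 10.6. At the other end, the mitotic kinase Aurkb had 2 exon reads in all 6 libraries together. Its RPKM was 0 in every sham library, where a count of 0 allows a level of up to 0.0626 to 0.0667 RPKM by counting error. The median gene stood at 1.51 RPKM in G1, 2.53 in S phase and 0.106 in mitosis. The 32 genes together took 0.0388% to 0.0462% of all exon reads.

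The promoters of 4 genes are shown to set mitotic genes of very low and of high level beside each other. Cdk1, the kinase that drives entry into mitosis, and Mki67, the gene of the proliferation marker Ki-67, were close to silent in these retinas. Bub1b, the checkpoint kinase BubR1, was the most abundant of the mitotic set, and Traip stood apart from it. Each line gives the 250 bases before the RefSeq start of the gene in GRCm38.p6, read 5′ to 3′ on the strand of the gene. Capitals mark motif letters found on either strand. The letters searched for the CHR were TTTGAA, with the form TTCGAA also accepted. Those of the box bound by NF-Y were CCAAT. Those of the E2F motif were TTTCCCGC or TTTGGCGC or TTTCGCGC or TTTGCCGC, and no motif of one kind contains another.
Cdk1, chr10:69352913-69353162, minus strand: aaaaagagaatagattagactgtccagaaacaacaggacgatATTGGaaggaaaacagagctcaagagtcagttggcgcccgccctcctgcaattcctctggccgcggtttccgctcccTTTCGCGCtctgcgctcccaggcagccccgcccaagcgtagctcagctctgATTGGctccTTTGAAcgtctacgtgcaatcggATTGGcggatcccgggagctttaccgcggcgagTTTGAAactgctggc
Mki67, chr7:135716380-135716629, minus strand: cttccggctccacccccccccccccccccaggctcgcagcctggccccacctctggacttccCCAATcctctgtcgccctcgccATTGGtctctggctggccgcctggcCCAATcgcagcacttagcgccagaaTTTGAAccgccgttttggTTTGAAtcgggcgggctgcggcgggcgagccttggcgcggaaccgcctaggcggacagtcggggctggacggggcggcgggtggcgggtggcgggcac
Bub1b, chr2:118597961-118598210, plus strand: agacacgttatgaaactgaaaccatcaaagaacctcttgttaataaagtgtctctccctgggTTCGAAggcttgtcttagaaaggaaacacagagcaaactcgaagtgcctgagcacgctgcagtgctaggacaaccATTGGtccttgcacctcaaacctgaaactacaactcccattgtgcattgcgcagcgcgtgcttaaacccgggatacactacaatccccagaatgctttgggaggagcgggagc
Traip, chr9:107950713-107950962, plus strand: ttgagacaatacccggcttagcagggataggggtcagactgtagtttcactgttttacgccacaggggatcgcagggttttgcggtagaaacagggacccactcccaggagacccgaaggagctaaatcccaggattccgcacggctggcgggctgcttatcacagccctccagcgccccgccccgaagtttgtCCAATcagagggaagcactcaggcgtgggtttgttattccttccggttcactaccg
The Cdk1 stretch held CHR letters 71 and 15 bases before the start, CCAAT letters at 208, 80 and 48, and an E2F motif at 131. That of Mki67 held CHR letters at 116 and 98 and CCAAT letters at 188, 166 and 141. Bub1b had 1 CHR at 188 and 1 CCAAT at 113, and Traip only a CCAAT at 56 in the stretch shown.

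Promoter windows of 300 bases, from 250 before to 50 after the start, were present in the RefSeq table for 26 of the 32 genes. CHR letters were found for 9 of the 11 mitotic genes matched, for 2 of the 9 S-phase genes and for 0 of the 5 G1 genes, against 21.7% of the 27025 genes in the table. CCAAT letters were found for 10 mitotic, 8 S-phase and 2 G1 genes, against 41.1% of all. Each mitotic gene with a CHR also had a CCAAT, a pair held by 9.65% of all genes. The window of Traip, counted in none of these groups, held that pair as well, its CHR lying outside the stretch shown above. Bub1b had 2 CHR matches in its window, 1 of them outside the stretch. E2F letters were found for 4 S-phase genes, 1 mitotic gene and 1 G1 gene, against 2.6% of all. A match describes these letters only and does not show that a factor binds there. Aurkb, Ccna2, Ccnd1, Ccnd2, Ccne2 and Mcm4 had no entry.

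No G1 gene changed past the threshold, and 4 of the 8 had log2 fold changes above 0. Cdk4, the partner kinase of the D-type cyclins, had 468, 519 and 484 exon reads in the sham libraries and 558, 674 and 682 in the ONC libraries. In RPKM this was 15.3 ± 0.719 against 18.7 ± 2.01 (SD, n = 3 each). With libraries scaled to one another, ONC 1 fell among the sham values and the fitted log2 fold change was 0.16 ± 0.10 (SE), with an adjusted p of 0.451. Ccnd3, the D-type cyclin with the highest level, gave 689, 862 and 743 reads in sham and 929, 865 and 939 in ONC. Its RPKM was 14.2 ± 1.49 against 15.9 ± 0.448, and after scaling the groups overlapped with a log2 fold change of 0.04 ± 0.09 and an adjusted p of 0.869. The end of Ccnd3 shares 359 bases with Bysl, and the counting is not stated to use strand, so reads in that stretch cannot be told apart.

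Ccnd1, the cyclin most closely tied to growth factor signals, had 472, 518 and 504 sham reads and 566, 535 and 549 ONC reads. Its log2 fold change was -0.07 ± 0.10, with an adjusted p of 0.782. The sign of that small value turned positive with the authors' RPKM scaling, which places the median tested gene at 0.13 instead of 0.01. Ccnd2 was much lower, at 44 to 66 sham and 64 to 69 ONC reads, with a log2 fold change of 0.16 ± 0.29. The E-type cyclins Ccne1 and Ccne2, which bind Cdk2 at the entry to S phase, had log2 fold changes of -0.15 ± 0.27 and -0.13 ± 0.23. Ccne2 overlaps Ints8 over 5622 bases, and 78.4% of its exon reads were uniquely mapped.

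The 2 remaining G1 kinases differed in direction. Cdk2 gave 55, 30 and 54 sham reads and 72, 74 and 76 ONC reads. All ONC values lay above all sham values after scaling, yet the log2 fold change of 0.45 ± 0.31 had an adjusted p of 0.490. Cdk6, which pairs with the same cyclins as Cdk4, gave 19, 25 and 20 sham reads and 3, 7 and 17 ONC reads. All ONC values lay below all sham values, with a log2 fold change of -1.45 ± 0.60 and an adjusted p of 0.221. Most Cdk6 reads fell in introns, 85.6% of its gene reads in sham and 89.6% in ONC. The intron reads were also fewer after ONC, with 114, 114 and 153 in sham and 66, 78 and 88 in ONC. Over all genes exons held 75.9%, 76.6% and 70.9% of gene reads in sham and 79.9%, 80.4% and 78.5% in ONC. Introns thus took a smaller share of every ONC library than of any sham library. The part of this shift in the Cdk6 values was not tested. When exon and intron reads were counted together, Cdk6 passed the threshold with a log2 fold change of -0.96 ± 0.22 and an adjusted p of 0.0276, where 8.36% of all tested genes passed.

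**Figure D2:**
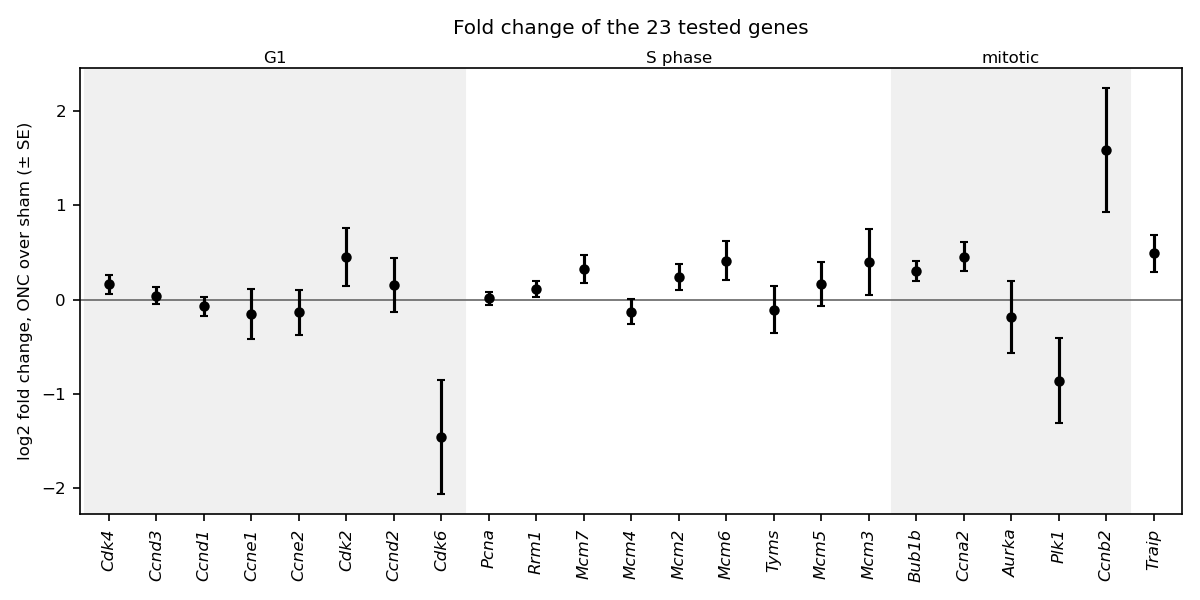
Log2 fold change of ONC over sham for the 23 tested genes, from edgeR's fit to the exon reads, with bars of 1 standard error. G1 and S-phase genes other than Cdk6 lie between -0.15 and 0.45, and the genes with the largest changes in either direction, Ccnb2 at 1.59 and Cdk6 at -1.45, have wide bars.

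Among S-phase genes 5 of the 6 Mcm helicase subunits had log2 fold changes above 0, and none passed the threshold. The 6 proteins Mcm2 to Mcm7 form the ring that unwinds DNA at the replication fork. Mcm7 had the largest count difference of the 6, with 380, 251 and 276 sham reads and 412, 488 and 424 ONC reads. Sham 1 lay within the ONC values after scaling, and the log2 fold change was 0.33 ± 0.15 with an adjusted p of 0.259. Without sham 1 Mcm7 passed the threshold, at 0.52 ± 0.14 with an adjusted p of 0.0579, where 5.16% of all genes passed.

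Mcm2 gave 266, 203 and 245 sham reads and 324, 325 and 332 ONC reads. Its groups did not overlap, and its log2 fold change was 0.24 ± 0.14 with an adjusted p of 0.408. Mcm6 gave 84, 84 and 114 sham reads and 127, 148 and 163 ONC reads, with overlap after scaling and a log2 fold change of 0.41 ± 0.21 at an adjusted p of 0.332. Mcm3 and Mcm5 had log2 fold changes of 0.40 ± 0.35 and 0.16 ± 0.23, and Mcm4 had -0.13 ± 0.13. Summed over the 6 subunits, the level in CPM (exon reads scaled to the size of the library) was 67.0, 54.5 and 62.3 in sham and 70.4, 69.4 and 68.9 in ONC. The ONC sums all lay above the sham sums.

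Pcna, in contrast, had almost the same level in both groups. It gave 1710, 1675 and 1543 sham reads and 1747, 2086 and 1946 ONC reads, or 54.9 ± 4.53 against 60.3 ± 5.90 RPKM. Scaled values overlapped, with a log2 fold change of 0.01 ± 0.07 and an adjusted p of 0.944. Only 76.0% of Pcna exon reads were uniquely mapped, so its level is uncertain, and with those reads alone the log2 fold change was -0.02. The sum over all S-phase genes overlapped between groups. Over the 9 S-phase genes without Pcna, the ONC sums of 118, 124 and 122 CPM lay above the sham sums of 116, 104 and 110. Leaving Pcna out was decided after its values were seen, so that separation is a description only.

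The enzymes that make DNA precursors did not differ past the threshold. Rrm1, the large subunit of ribonucleotide reductase, ranged from 738 to 771 sham reads and from 853 to 1007 ONC reads. Its groups overlapped after scaling, and the log2 fold change was 0.11 ± 0.08. Rrm2, the small subunit of the same enzyme, which dividing cells make in S phase, had 2, 0 and 0 reads in sham and 0, 9 and 7 in ONC. That level of 0.055 RPKM was too low to be tested. Tyms, which makes thymidylate, had a log2 fold change of -0.10 ± 0.25.

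The mitotic genes fell into 2 kinds by level. Bub1b and Ccna2 were expressed at 10.6 and 8.37 RPKM and held 89.99% to 93.1% of all mitotic reads in each library. The other 11 genes each had a mean of at most 0.726 RPKM. Only Aurka, Plk1 and Ccnb2 among those 11 were abundant enough to be tested.

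Bub1b gave 935, 692 and 746 exon reads in sham and 1250, 1100 and 1054 in ONC, or 9.09 ± 1.74 against 12.2 ± 1.20 RPKM. After scaling the levels were 53.5, 38.1 and 43.9 CPM in sham and 63.1, 53.7 and 50.7 in ONC. Sham 1 thus reached the range of the ONC libraries. The log2 fold change was 0.31 ± 0.11 with an adjusted p of 0.143. Reads across exon junctions made up 69.2% of its exon reads, against a median of 39.8% over the 13445 genes with at least 100 reads, and they numbered 680, 484 and 573 in sham and 827, 735 and 697 in ONC.

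Ccna2, cyclin A2, which serves both S phase and the entry to mitosis, gave 551, 448 and 347 sham reads and 519, 790 and 834 ONC reads. ONC 1 lay among the sham libraries and the other ONC libraries lay well above them, at 26.2 against 38.6 and 40.1 CPM. The log2 fold change was 0.45 ± 0.15 and the adjusted p 0.119. Of the Ccna2 exon reads 83.2% were uniquely mapped, and with those alone the log2 fold change was 0.41 with an adjusted p of 0.189. Ccna2 shares 863 bases with Exosc9 at its end, and the reads there cannot be told apart. Junction reads of Ccna2 were 242, 185 and 169 in sham and 209, 360 and 321 in ONC, with ONC 1 again among the sham values. Exosc9 had a log2 fold change of 0.12 ± 0.10 with an adjusted p of 0.576, and it is named because of that overlap.

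Whether Ccna2 and Bub1b passed depended on the analysis. Without the RPKM filter both passed, Ccna2 at an adjusted p of 0.00228 and Bub1b at 0.0175, where 6.66% of the 17655 genes passed. In DESeq2's Wald test Ccna2 passed at 0.0961 and Bub1b had 0.149, where 6.82% of genes passed. With the authors' RPKM scaling Mcm7, Ccna2, Bub1b and Traip passed, where 12.7% of all genes did. Leaving out libraries moved Ccna2 both ways. Without sham 1 its log2 fold change was 0.63 ± 0.16 (adjusted p 0.0413), where 5.16% of all genes passed. Without ONC 1 it was 0.62 ± 0.13 (0.00138), where 14.9% of all genes passed. Without sham 2, sham 3, ONC 2 or ONC 3 it lay between 0.32 and 0.43, with adjusted p of 0.345 to 0.418. Bub1b passed without sham 1 alone, at 0.44 ± 0.11 and 0.0354. Without each of the other 5 libraries it lay between 0.20 (without sham 2, adjusted p 0.496) and 0.37 (without ONC 3, 0.159).

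**Figure D3:**
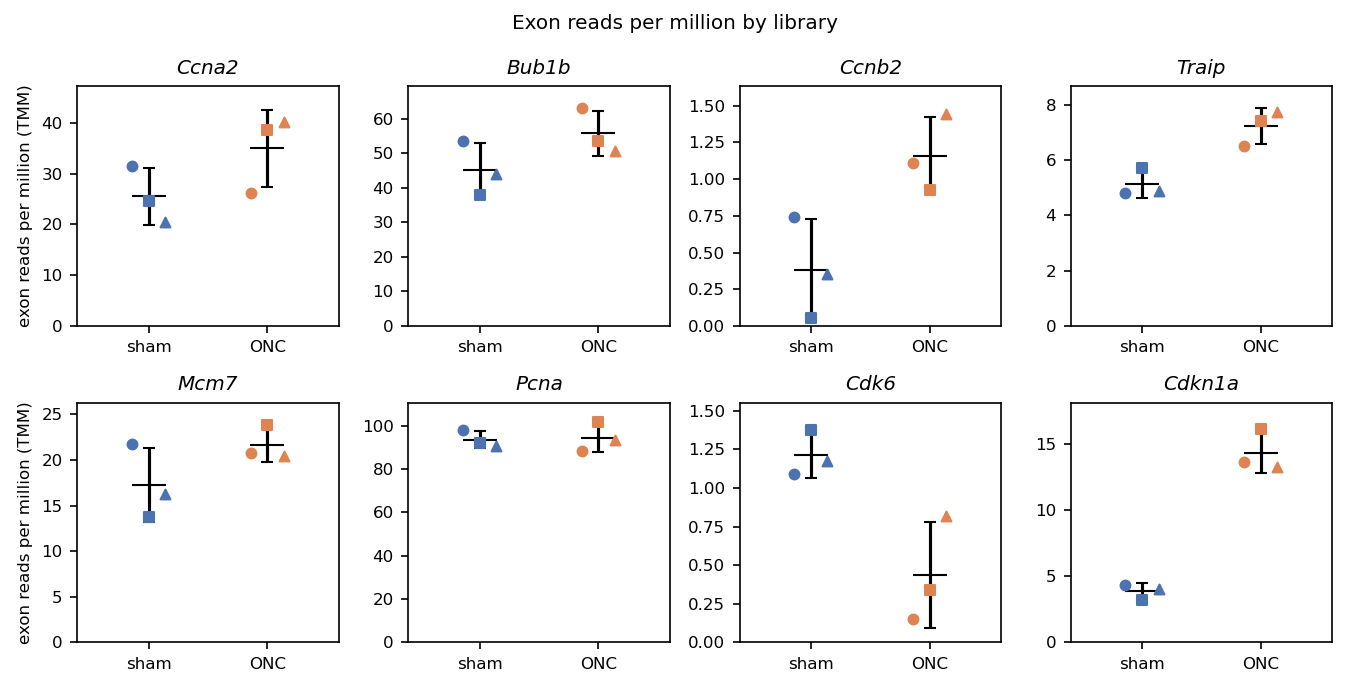
CPM of exon reads, scaled by the trimmed mean of M-values (TMM), in each library for 8 genes, with the mean and standard deviation of each group as a bar. Sham 1 (circle) reaches the ONC range for Ccna2, Bub1b and Mcm7, ONC 1 (circle) lies within the sham range for Ccna2, and of these 8 genes Cdkn1a separates the groups by the widest margin.

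Ccnb2, a B-type cyclin of mitosis, had 13, 1 and 6 reads in sham and 22, 19 and 30 in ONC. The groups did not overlap, and the log2 fold change of 1.59 ± 0.65 had an adjusted p of 0.218. It was 2.49 without sham 1 and 1.07 without sham 2, with adjusted p of 0.105 and 0.476. Introns held 75.9% of the Ccnb2 gene reads in sham and 39.3% in ONC, with 28, 25 and 10 intron reads against 23, 13 and 10. Over all genes too, introns took a smaller share of reads in the ONC libraries. With exon and intron reads counted together the log2 fold change was 0.32, with an adjusted p of 0.703. Plk1, a kinase that acts throughout mitosis, went the opposite way, with 27, 33 and 38 sham reads and 12, 21 and 30 ONC reads. Its groups did not overlap after scaling either, and its log2 fold change of -0.86 ± 0.45 had an adjusted p of 0.347. Aurka, a kinase of the spindle poles, had 32 to 37 sham reads and 30 to 39 ONC reads, with a log2 fold change of -0.18 ± 0.38.

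The markers most used to score dividing cells were present at a few reads per library. Mki67 had 10, 1 and 2 reads in sham and 13, 22 and 23 in ONC. All ONC values lay above all sham values after scaling, at mean levels of 0.0184 ± 0.0214 and 0.0757 ± 0.0214 RPKM. The log2 fold change fitted without the RPKM filter was 1.91 ± 0.86, with an adjusted p of 0.236. It depended on sham 1, which had most of the sham reads. Without that library it was 3.37 with an adjusted p of 0.0774, where 5.93% of genes passed, and without sham 2 it was 1.43 with 0.537. Top2a, the topoisomerase that untangles chromosomes, had 17, 5 and 11 reads in sham and 18, 23 and 20 in ONC, with overlap and a log2 fold change of 0.66 ± 0.68.

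Cdk1 had 1, 11 and 3 sham reads and 3, 4 and 5 ONC reads, so its groups overlapped and its log2 fold change of -0.51 ± 1.19 had an error larger than itself. Its cyclin partner Ccnb1 had 3, 0 and 4 reads in sham and 0, 5 and 15 in ONC, and 77.8% of those reads were uniquely mapped. Neither gene can be called higher, lower or equal at this depth. Cenpf, a kinetochore protein, had 7, 12 and 13 sham reads and 20, 27 and 33 ONC reads without overlap, at a log2 fold change of 1.10 ± 0.62 and an adjusted p of 0.408. Birc5, the survivin of the chromosomal passenger complex, and Bub1, a checkpoint kinase, had 3 to 15 and 0 to 10 reads per library, and their log2 fold changes were -0.71 ± 0.90 and -0.56 ± 1.11.

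Traip, which marks stalled and finishing replication forks with ubiquitin, gave 84, 104 and 83 exon reads in sham and 129, 152 and 161 in ONC. Its RPKM was 1.41 ± 0.182 against 2.15 ± 0.228, and the groups did not overlap. The log2 fold change was 0.49 ± 0.20 and the adjusted p 0.210. Introns held 60.1% of the Traip gene reads in sham and 52.6% in ONC, with 127, 147 and 135 intron reads against 132, 176 and 182. The intron share was lower in ONC over all genes as well. With exon and intron reads counted together the log2 fold change of Traip was 0.28, with an adjusted p of 0.287. With the authors' RPKM scaling Traip passed the threshold at 0.61 ± 0.22 and an adjusted p of 0.0784, where 12.7% of all genes passed. In all, the ONC libraries lay wholly above the sham libraries for 4 of the 23 tested genes (Cdk2, Mcm2, Ccnb2 and Traip), against 11% of all tested genes, and wholly below for 2 (Cdk6 and Plk1), against 10.8%.

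The medians of the G1, S-phase and mitotic groups are given as a description. Over genes with at least 30 reads in all, the median log2 fold change was -0.01 for 8 G1 genes, 0.16 for 9 S-phase genes and 0.38 for 10 mitotic genes, against 0.01 over all such genes. The mitotic median fell between the values of Bub1b and Ccna2. Of the 10 genes 6 were higher, and the 10 values ranged from -0.86 to 1.91. Several of the others rest on low counts, since only 5 of the 13 mitotic genes reached 100 reads. Over those 5 the median was 0.31. Summed over the 8 G1 genes, the level was 109, 121 and 120 CPM in sham and 120, 118 and 121 in ONC. The mitotic sum was 92.8, 69.1 and 71.3 in sham and 96.0, 100 and 101 in ONC, without overlap. Without Bub1b and Ccna2 the mitotic sum was 7.67, 6.43 and 6.89 in sham and 6.66, 8.01 and 10.1 in ONC, and the groups overlapped.

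Markers of other retinal cells were read beside these values. Of 10 microglial markers, 9 were tested and 2 rose, against 2.38% of all genes, Itgam by a log2 fold change of 0.76 ± 0.24 and Cd68 by 1.497 ± 0.48. The sum over all 10 microglial markers was 27.6 to 33.7 CPM in sham and 41.1 to 49.1 in ONC. All 6 markers listed here for retinal ganglion cells, whose axons were crushed, fell, against 3.72% of all genes. The smallest fall among them was that of Thy1, with a log2 fold change of -0.22 ± 0.06 and an adjusted p of 0.0517. Pou4f3, a further marker of these cells, was not in the list. The paper reports no significant change for Thy1 or Pou4f3. None of the tested markers of Müller glia and astrocytes, vessels, pigment epithelium or blood passed the threshold, where 6.09% of all genes did. Of 7 photoreceptor markers 2 rose, against 2.38% of all genes. Of the Müller glia and astrocyte markers, Vim passed in DESeq2 (log2 fold change 0.18, adjusted p 0.0968), where 6.82% of genes passed. Gfap passed without the RPKM filter (0.36, 0.0246), where 6.66% did. In the main fit 4 of the 7 markers tested for these glia were higher and 3 lower. Their list summed to 3304 to 3409 CPM in sham and 3118 to 3310 in ONC, with overlap. The part of these cell types in the mitotic and S-phase values was not tested, and in whole retina more cells of a type and more RNA per cell cannot be told apart.

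**Figure D4:**
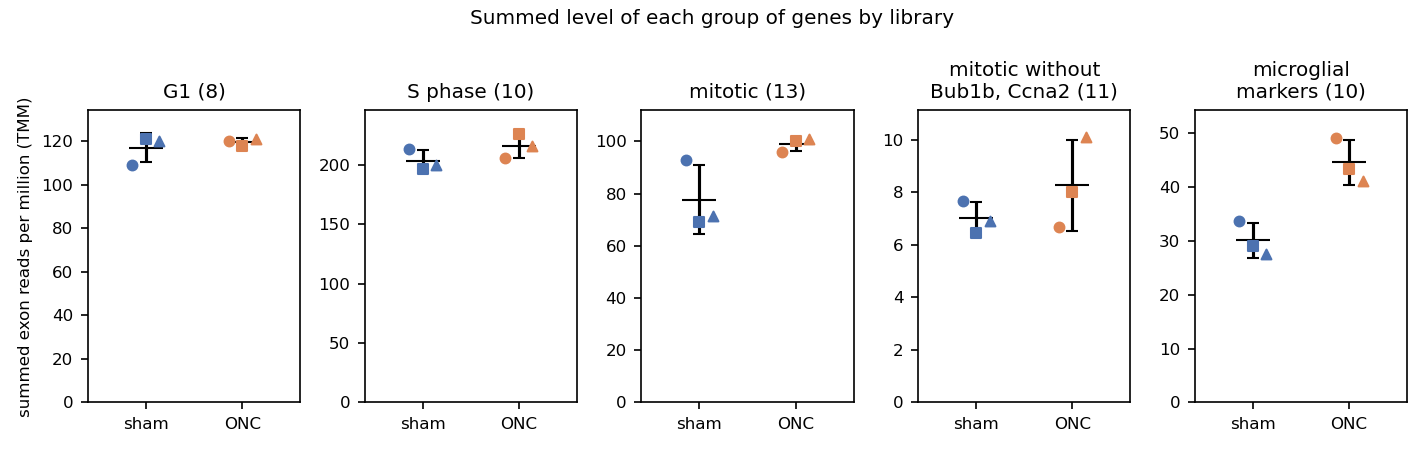
Summed level of each group of genes in CPM of exon reads (TMM) for the 3 sham and 3 ONC libraries, with the mean and standard deviation of each group as a bar and the number of genes in brackets. The mitotic sums separate (69.1 to 92.8 in sham, 96.0 to 101 in ONC) until Bub1b and Ccna2 are left out, and the microglial marker sums separate as well.

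Among 81 other genes of the same machinery, 66 were tested, 3 rose past the threshold and 0 fell. Of all genes 2.38% rose and 3.72% fell. An unadjusted p under 0.05 was seen for 7 of the 66, all higher in ONC. Of all genes 16.7% had such a p in either direction, and 7.73% were higher. Cdkn1a, the p53-responsive Cdk inhibitor p21, rose by a log2 fold change of 1.89 ± 0.18 with an adjusted p of 1.47e-06. It gave 76, 59 and 69 reads in sham and 270, 331 and 276 in ONC, and no ONC library came near the sham range. It was the 1 gene past the threshold of 6 Cdk inhibitors tested. Of 10 tested genes of the retinoblastoma and E2F families none passed, where 6.09% of all genes did. Their log2 fold changes lay between -0.40 and 0.14.

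The other 2 genes act at the start of DNA copying. Cdc7, the kinase that fires replication origins, gave 575, 444 and 478 sham reads and 684, 801 and 872 ONC reads, and rose by a log2 fold change of 0.44 ± 0.11 with an adjusted p of 0.0346. Pola2, a subunit of the polymerase that lays down primers, gave 124, 93 and 92 sham reads and 164, 219 and 171 ONC reads, and rose by 0.63 ± 0.20 with an adjusted p of 0.0869. Both calls were lost without sham 2, sham 3, ONC 2 or ONC 3. Over the 6 leave-outs Cdc7 ranged from 0.34 to 0.55 (adjusted p 0.00292 to 0.222) and Pola2 from 0.49 to 0.78 (0.0354 to 0.386). Cdkn1a passed in all 6, at 1.77 to 1.97. Cdc7 was the 1 gene of 16 tested licensing and firing genes to pass, and Pola2 the 1 of 19 fork enzymes. Of all tested genes 6.09% passed in either direction, and counts this small lie near that share in lists of this size. None of 15 tested spindle and kinetochore genes passed. One of these, Spc25, stood out for its level and is named after its values were seen, with 2545 to 3157 reads per library, a mean of 72.8 RPKM and a log2 fold change of -0.11 ± 0.06.

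Exon reads per library ran from 17343945 to 18349331 in sham and from 20019818 to 20358008 in ONC. The variance between replicates was 4.54 to 13.7 times that of the sampling noise of their counts, most for ONC 1 against the other ONC libraries. The fitted variation between pools of a group was 9.17% (biological coefficient of variation), and counting error comes on top of it for genes of few reads such as Cdk1, Ccnb1 and Aurkb.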

How the data were processed

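RNA of 6 pools of retina was sequenced from libraries made with a TruSeq RNA kit, and strand is not stated to be kept. The authors mapped paired 100-base reads with CLC Genomics Workbench 6.0.1, allowing 2 mismatches, and deposited counts of exon, unique, junction and gene reads. The RPKM that the authors deposited divide exon reads by all gene reads of the library, introns included. The methods name mm9, but the deposited positions of all 32 genes overlap their GRCm38 RefSeq entries, so promoters were read from GRCm38.p6 and matched by symbol.

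Total exon counts (17343945 to 20358008 per library) of 3 ONC and 3 sham pools were fitted with edgeR 4.0.16 in R 4.3.3 (TMM scaling, quasi-likelihood test) over 13670 genes with a mean RPKM above 0.3 in a group, and p-values were adjusted by Benjamini-Hochberg over all of them. The standard error was the log2 fold change over the root of its F statistic. Genes under the filter took values from the fit over 17655 genes. A count of 0 was read as allowing 3 counts, for counting error only.

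Alternatives were DESeq2 1.42.0, limma 3.58.1 on log2 RPKM, other scalings, filters and read classes, a replicate block and leaving out each library. Values per library were to be given for genes past the threshold, the 4 of highest RPKM, Mki67, Top2a, Cdk1, Ccnb1, Ccnb2 and Cdkn1a, and other genes shown that way were chosen after their values were seen. Members and lists were chosen with earlier results of these data known.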

Additional observations from a re-analysis of the deposited data

How the results depend on the processing

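No member passed an FDR of 0.1 in the fit reported above, and 0 of them were DEGs. With RPKM scaling 4 members passed, where 12.7% of all genes did, and with DESeq2 1 (6.82%). With limma on log2(RPKM + 0.1) 2 passed, Bub1b and Traip, where 1121 of the 13670 genes did. With limma on log2(RPKM + 1) 3 passed, Ccnb2, Bub1b and Traip, where 1158 genes did. With total gene reads 2 passed, Cdk6 and Bub1b (8.36% of all genes), and without the RPKM filter 2 (6.66%). There was 1 DEG among the members with RPKM scaling (Traip) and 1 with total gene reads (Cdk6). Leaving out 1 library gave 0 to 3 members (3 without sham 1, where 5.16% of all genes passed) and 0 to 1 DEGs. DESeq2 size factors, unique exon reads and a mean RPKM above 1 gave 0. Over all genes, RPKM scaling gave 1730 past the threshold, an FDR of 0.05 gave 515, and leaving out 1 library gave 371 to 2031. DEGs numbered 350 with RPKM scaling, 349 with total gene reads and 153 to 353 without 1 library. Other pathway genes past the threshold numbered 9 of 66 with RPKM scaling, where 12.7% of all genes passed, and 8 with either limma fit. Without 1 library they numbered 1 to 5 (5 without ONC 1, where 14.9% of all genes passed).

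The replicate numbers did not pair the samples, since same-numbered libraries correlated at -0.047, -0.033 and 0.003 in their deviations from the group means. With the replicate block 1 member passed, Bub1b at an adjusted p of 0.0615, and 2 other pathway genes passed, Pola2 being lost at 0.114.

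The median log2 fold change of the G1 members was 0.11 with RPKM scaling, 0.11 with limma at 0.1 and 0.063 at 1. That of the S-phase members was 0.28 with RPKM scaling, 0.27 with limma at 0.1, 0.25 with total gene reads and 0.12 to 0.27 without 1 library. That of the mitotic members was 0.076 with limma at 1 and 0.25 to 0.54 without 1 library. The log2 ratio of summed levels with RPKM scaling was 0.16 for G1 and 0.21 for S phase, where the median tested gene stood at 0.13.

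The sign of small values turned. Ccnd1 was at 0.051 with RPKM scaling, 0.051 and 0.044 with limma at 0.1 and 1, and 0.0092 with total gene reads. Ccne1 was at 0.015 and 0.0016 with the limma fits, and Tyms at 0.0091 with RPKM scaling and 0.050 and 0.017 with limma. Pcna was at -0.018 with unique reads and Cdk1 at 0.099 with total gene reads. Without 1 library Ccnd3 ranged from -0.031 to 0.11, Ccne1 from -0.39 to 0.043, Pcna from -0.047 to 0.062, Tyms from -0.31 to 0.16, Ccnb1 from -0.13 to 1.85, Cdk1 from -0.98 to 0.72 and Bub1 from -1.43 to 0.031. The causes were not tested. The alternatives for the other pathway genes, for Cdkn1a, Cdc7 and Pola2, and for the summed levels were chosen after seeing the data.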
